A study of Mus musculus with 12 samples.

Results

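Islets of Langerhans kept at 11 mM glucose with diazoxide (11G+D) were compared with islets at low glucose (2G) by RNA sequencing of total RNA. The comparison used 4 of the 12 libraries of the study, 2 for each condition, chosen by their labels and paired by mouse number. All 4 came from wild-type C57BL/6 mice, and by their labels mouse 1 and mouse 2 each gave islets to both conditions. The 11G+D islets were treated for 4 h. The 2G islets carry no treatment label other than untreated, and neither their glucose concentration nor a duration is stated. Effects of glucose, of diazoxide itself and of the incubation therefore cannot be told apart between 11G+D and 2G. Islets of the same mice at 11 mM glucose for 4 h without diazoxide (11G) and with the calcineurin inhibitor FK506 (11G+FK), 2 libraries each, entered the same fit, and 11G values are given where they show what diazoxide left in place.

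In β cells, glucose is taken up, phosphorylated and oxidised, and the ATP formed closes ATP-sensitive potassium (KATP) channels. The membrane then depolarises, calcium enters, and insulin is secreted. Diazoxide holds KATP channels open, so that glucose is still metabolised while the membrane stays hyperpolarised. Genes read by glucose metabolites, such as the targets of the transcription factors ChREBP and MondoA, can in this way be set apart from genes read by membrane activity and calcium.

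Between 17357572 and 22892255 read counts were assigned to genes per library. The insulin gene Ins2 took 6.30% and 6.63% of all counts in the 11G+D libraries, against 5.42% and 5.38% in the 2G libraries. The markers of β cells (Ins1, Iapp, Pdx1, Mafa, Nkx6-1, Slc2a2, Ucn3), α cells (Gcg) and δ cells (Sst), the cell types named in the labels, were detected in all 4 libraries. Gcg and Slc2a2 varied widely between mice. Gcg stood at 9617 and 6263 fragments per kilobase and 1e6 fragments (FPKM) in 11G+D and 13400 and 2778 FPKM in 2G. Slc2a2 stood at 19.1 and 9.25 FPKM in 11G+D and 9.62 and 1.98 FPKM in 2G. Transcripts of acinar and ductal cells of the surrounding pancreas were also present. The 30 acinar markers in the tables took 0.0307% and 0.0526% of counts in 11G+D, against 0.0790% and 0.143% in 2G; 1 of them, the entry matched to Cela3a, had no count. The 16 ductal markers took 0.367% and 0.257% in 11G+D, against 0.298% and 0.586% in 2G. Both were most abundant in the 2G library of mouse 2, and their part in the differences below was not tested except where a value is given. In whole islets, fewer cells of a type and less RNA per cell cannot be told apart.

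At 11 mM glucose with diazoxide, 840 of 16087 genes tested differed from 2G, with 469 higher and 371 lower (edgeR's quasi-likelihood test with the mouse as a block, Benjamini-Hochberg adjusted p under 0.05). These calls are 5.22% of the genes tested, 2.92% higher and 2.31% lower. At least 2-fold differences were found for 216 of the higher and 151 of the lower genes, 1.34% and 0.939% of those tested. Metabolic genes such as Txnip and Pdk1, transcripts encoded by mitochondrial DNA and several transcription factors of the β-cell identity list were higher in 11G+D. The metallothioneins Mt1 and Mt2 and 25 of 44 genes of the ATF4 amino acid response were lower, as were 9 of 27 genes of fatty acid use, on a list written after the values were seen. Npas4, Nr4a1 and Lbh, which follow membrane activity, did not pass the test against 2G. All 840 called genes moved the same way in both mice, as the plot of both mice shows. The test with the mouse as a block favours genes on which the mice agree, so this is no separate support. Over all 16087 genes tested, 4729 lay below zero and 4783 above zero in both mice. The number of calls rests on comparing islets within mice and on all libraries of the fit: without the mouse block 10 genes passed the threshold, 2323 at an unadjusted p under 0.05, and with 1 of the 4 libraries left out 246 (without the 2G library of mouse 2) to 1140 (without that of mouse 1) passed. With both 11G and 11G+FK left out, 51 passed, and with 1 library of 11G+FK left out 152 or 157.

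**Figure D1:**
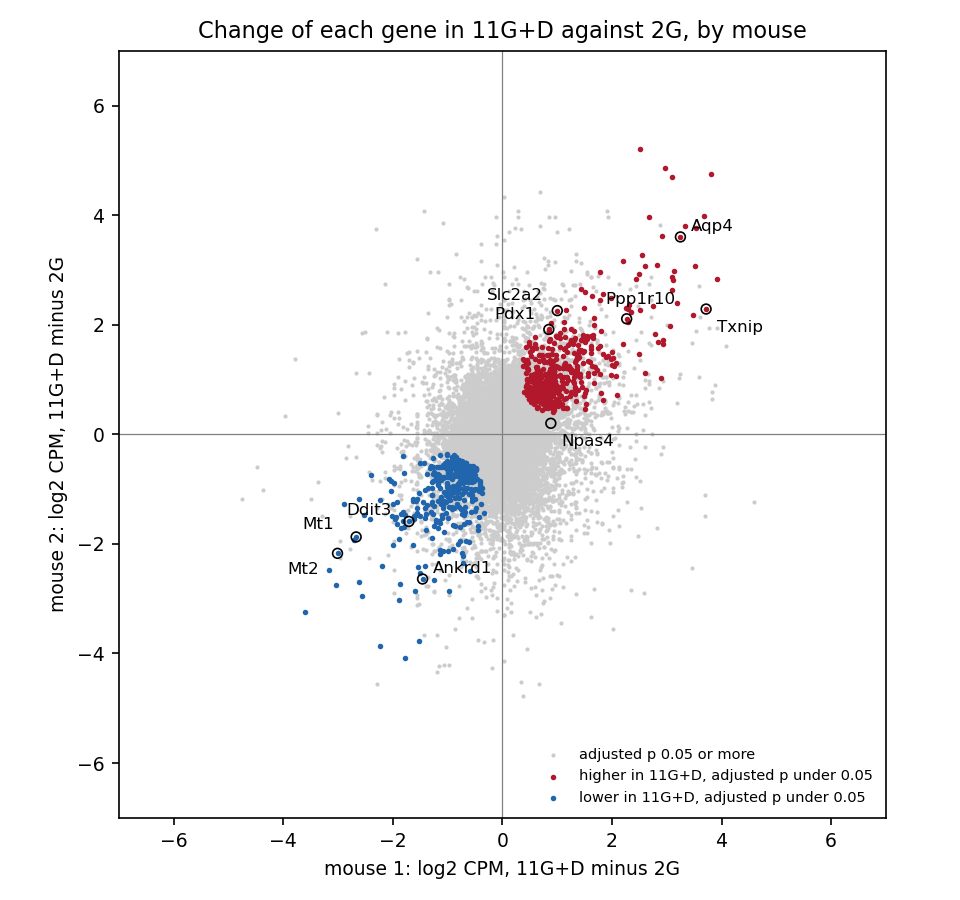
Change of each gene tested in 11G+D against 2G, with log2 CPM differences in mouse 1 on the horizontal and in mouse 2 on the vertical axis. Each point is a gene, coloured where the adjusted p is under 0.05. The 469 higher and 371 lower genes lie in the quadrants where both mice changed the same way, which the test favours. Npas4 lies among the genes not called.

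**Figure D2:**
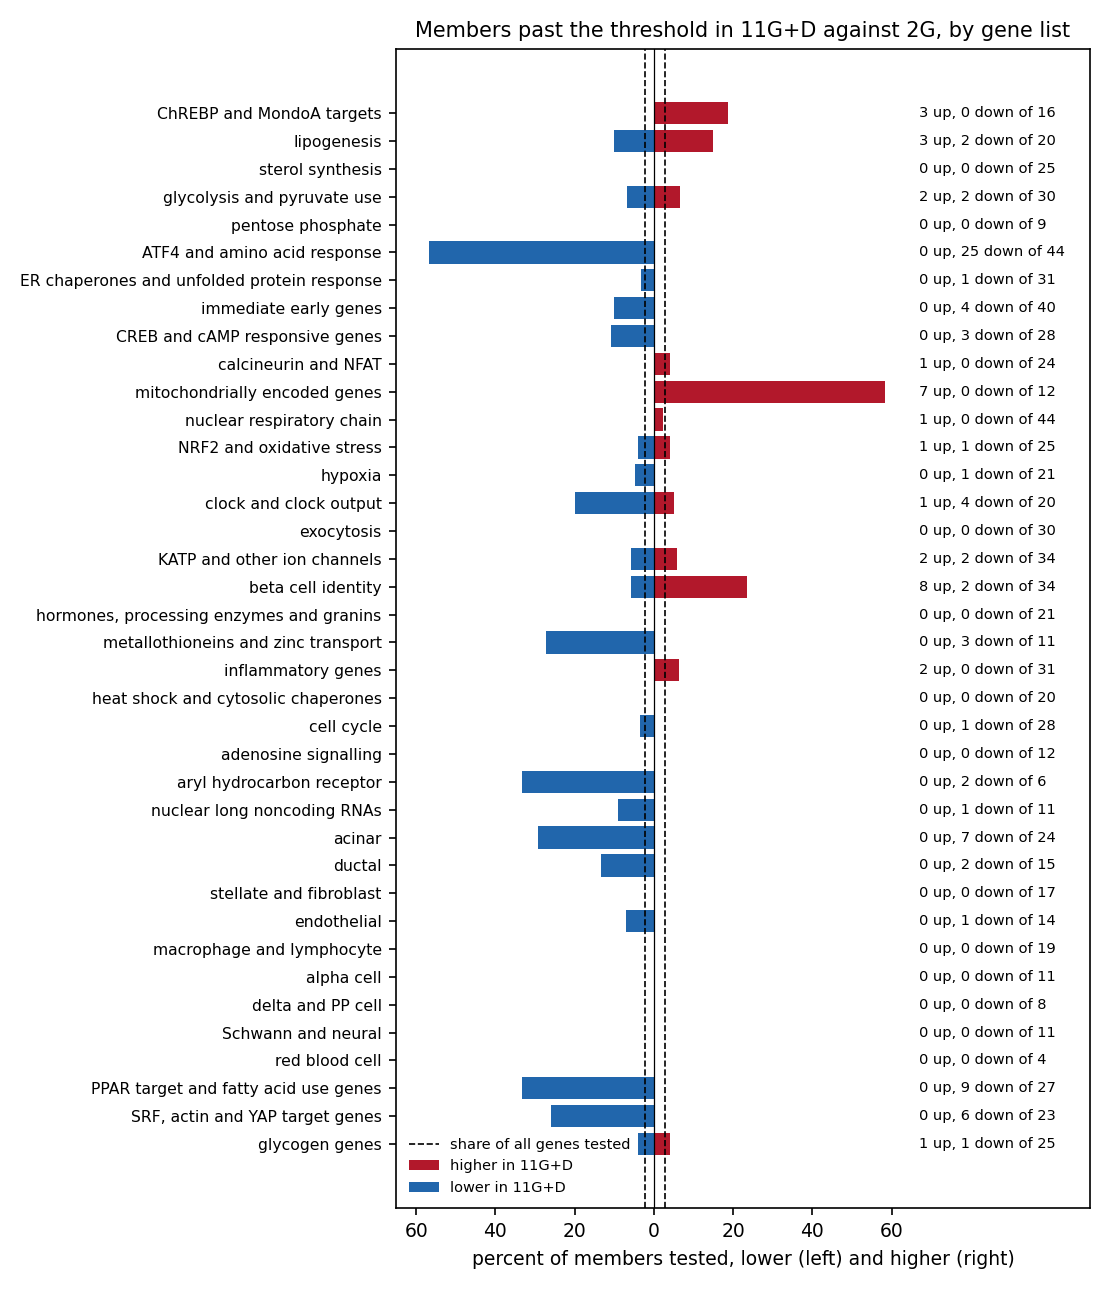
Share of the members tested in each gene list that passed the threshold in 11G+D against 2G, with lower members to the left and higher members to the right. Dashed lines mark the shares over all genes tested, 2.31% lower and 2.92% higher; the ATF4 list extends farthest to the left and the mitochondrially encoded genes farthest to the right.

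Targets of ChREBP and MondoA, transcription factors that are activated by phosphorylated glucose, were led by 3 higher genes. Of 16 members tested, 3 rose, Txnip and Arrdc4 among them, and none fell, where 2.92% of all genes tested rose and 2.31% fell. The median log2 change was 0.02, against -0.02 over all genes. Besides targets, the list holds genes of the factors themselves, such as Mlxipl. Txnip (ENSMUSG00000038393), which encodes an arrestin-domain protein that binds thioredoxin, had 1549 and 875.0 CPM (counts scaled to 1e6 per library) in 11G+D islets of mouse 1 and mouse 2, against 117.6 and 179.4 CPM in 2G islets. Both 11G+D libraries lay above both 2G libraries, a log2 change of 2.90 ± 0.37 (standard error), or 7.44-fold (adjusted p = 0.00526, edgeR). Without diazoxide, Txnip stood at 551.8 and 235.1 CPM in 11G, so that the level with diazoxide was higher than without it in both mice, by 1.66 ± 0.35 on the log2 scale (adjusted p = 0.0324, edgeR). Between 11G+D and 11G, 3.79% of all genes tested were called, 1.33% higher and 2.46% lower.

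The window of 250 bases before the Txnip start site is shown because it holds a tandem pair of CACGAG hexamers 5 bases apart, an arrangement typical of carbohydrate response elements (RefSeq sequence, chr3:96557707-96557956 of GRCm38.p6, plus strand). Capitals mark the pair, which starts 85 bases before the start site.
Txnip: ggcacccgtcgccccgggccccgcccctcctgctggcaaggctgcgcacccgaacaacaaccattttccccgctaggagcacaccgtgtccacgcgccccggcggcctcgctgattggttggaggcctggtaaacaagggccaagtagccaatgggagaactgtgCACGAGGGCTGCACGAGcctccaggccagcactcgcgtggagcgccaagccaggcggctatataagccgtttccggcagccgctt
A pair of CACGAG hexamers with any 5 bases between them, searched on both strands, was found in 0.00304% of 32841 mouse promoter windows of this length, that of Txnip alone. It was written down from this window, so its rarity is a description of the sequence and bears on no other gene.

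Arrdc4, an arrestin-domain relative of Txnip, had 131.3 and 102.0 CPM in 11G+D against 46.3 and 74.1 CPM in 2G, with no overlap (log2 change 0.95 ± 0.24, adjusted p = 0.0483, edgeR). Its change was smaller in mouse 2 (0.46) than in mouse 1 (1.50). Its fitted change ran from 0.54 without the 2G library of mouse 1 to 1.43 without that of mouse 2. Arrdc4 passed the threshold in 1 of the 4 fits that leave out a library, whereas Txnip passed in all 4.

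Pklr and Mlxipl did not pass. The liver-type pyruvate kinase Pklr had 35.8 and 14.9 CPM in 11G+D against 19.9 and 10.1 CPM in 2G, so that the groups overlapped (log2 change 0.73 ± 0.24, adjusted p = 0.111, edgeR). Against 11G, with 10.4 and 7.68 CPM, Pklr in 11G+D was higher by 1.40 ± 0.25 on the log2 scale (adjusted p = 0.0164, edgeR). Mlxipl, which encodes ChREBP, had 264.3 and 231.4 CPM in 11G+D and 243.6 and 184.5 CPM in 2G, overlapping between groups.

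Few genes of glucose transport and glycolysis were called. Of 30 members tested, 2 rose and 2 fell, where 2.92% of all genes tested rose and 2.31% fell. Slc2a2 encodes GLUT2, the main glucose transporter of rodent β cells. It had 48.8 and 24.3 CPM in 11G+D against 24.3 and 5.05 CPM in 2G, so that 11G+D of mouse 2 and 2G of mouse 1 were level (log2 change 1.50 ± 0.34, adjusted p = 0.0358, edgeR). The change was 0.90 without the 2G library of mouse 2 and 2.39 without that of mouse 1, and it passed in 2 of the 4 fits that leave out a library. Within each mouse 11G+D was the higher, by 2.26 on the log2 scale in mouse 2 and by less in mouse 1. Pdk1, a kinase that inhibits pyruvate dehydrogenase, had 72.3 and 61.4 CPM in 11G+D against 27.0 and 29.8 CPM in 2G, well apart (log2 change 1.23 ± 0.16, adjusted p = 0.00524, edgeR). Pdk1 was also higher than in 11G, where it stood at 33.0 CPM in both mice. Its relative Pdk4, induced by fatty acids in many tissues, had 2.83 and 2.01 CPM in 11G+D and 6.93 and 5.57 CPM in 2G and fell, as did the neuronal enolase Eno2, with 79.2 and 85.2 CPM in 11G+D against 157.9 and 136.7 CPM in 2G. Slc2a2, Pdk1, Pdk4 and Eno2 did not pass without the mouse block or with the 4 libraries of 11G+D and 2G alone.

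Among 20 lipogenic genes, 3 rose and 2 fell, beside shares of 2.92% and 2.31% over all genes tested. The members that rose were Acaca (acetyl-CoA carboxylase), Srebf1 (the transcription factor SREBP1) and Scd2 (a stearoyl-CoA desaturase), with log2 changes of 0.63, 0.70 and 1.07, each past the threshold in 1 of the 4 fits without a library. Fads1 (a fatty acid desaturase) and Dgat2 (triglyceride synthesis) fell by 0.63 and 1.27, and passed in 0 and in 2 of these fits. None of 25 sterol synthesis genes and none of 9 pentose phosphate genes passed. Among 25 glycogen genes, 1 rose and 1 fell. Ppp1r3c, which targets protein phosphatase to glycogen, had 10.1 and 6.97 CPM in 11G+D against 1.74 and 2.48 CPM in 2G (log2 change 1.99 ± 0.35, adjusted p = 0.0171, edgeR). Stbd1, a glycogen-binding protein, fell to 25.1 and 26.6 CPM in 11G+D, against 55.3 and 121.7 CPM in 2G.

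Among genes known to follow membrane activity and calcium, 11 of 40 immediate early genes and 12 of 28 genes of the CREB and cAMP response were lower in 11G+D than in 11G and none was higher, in a comparison where 2.46% of all genes were called lower. Against 2G, 4 and 3 members fell and none rose, where 2.31% of all genes tested fell and 2.92% rose. Npas4, an activity-induced transcription factor, had 2.41 and 2.01 CPM in 11G+D, 77.3 and 60.1 CPM in 11G, and 1.28 and 1.74 CPM in 2G. The 11G+D libraries lay just above the 2G libraries and far below the 11G libraries. The log2 change of 11G+D against 2G was 0.55 with a 95% interval from -0.21 to 1.31 (adjusted p = 0.372, edgeR), and that against 11G was -4.95 ± 0.30 (adjusted p = 0.000104, edgeR). Lbh, a transcriptional cofactor, was also far below 11G, with 58.2 and 65.0 CPM in 11G+D, 1247 and 839.6 CPM in 11G, and 64.4 and 60.3 CPM in 2G. The mice differed in the order of 11G+D and 2G for Lbh, and the interval of 11G+D against 2G ran from -0.52 to 0.52 on the log2 scale. The nuclear receptor Nr4a1 had 30.0 and 32.5 CPM in 11G+D, 343.9 and 185.2 CPM in 11G, and 20.8 and 33.0 CPM in 2G, with 11G+D and 2G overlapping (interval -0.44 to 0.85).

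**Figure D3:**
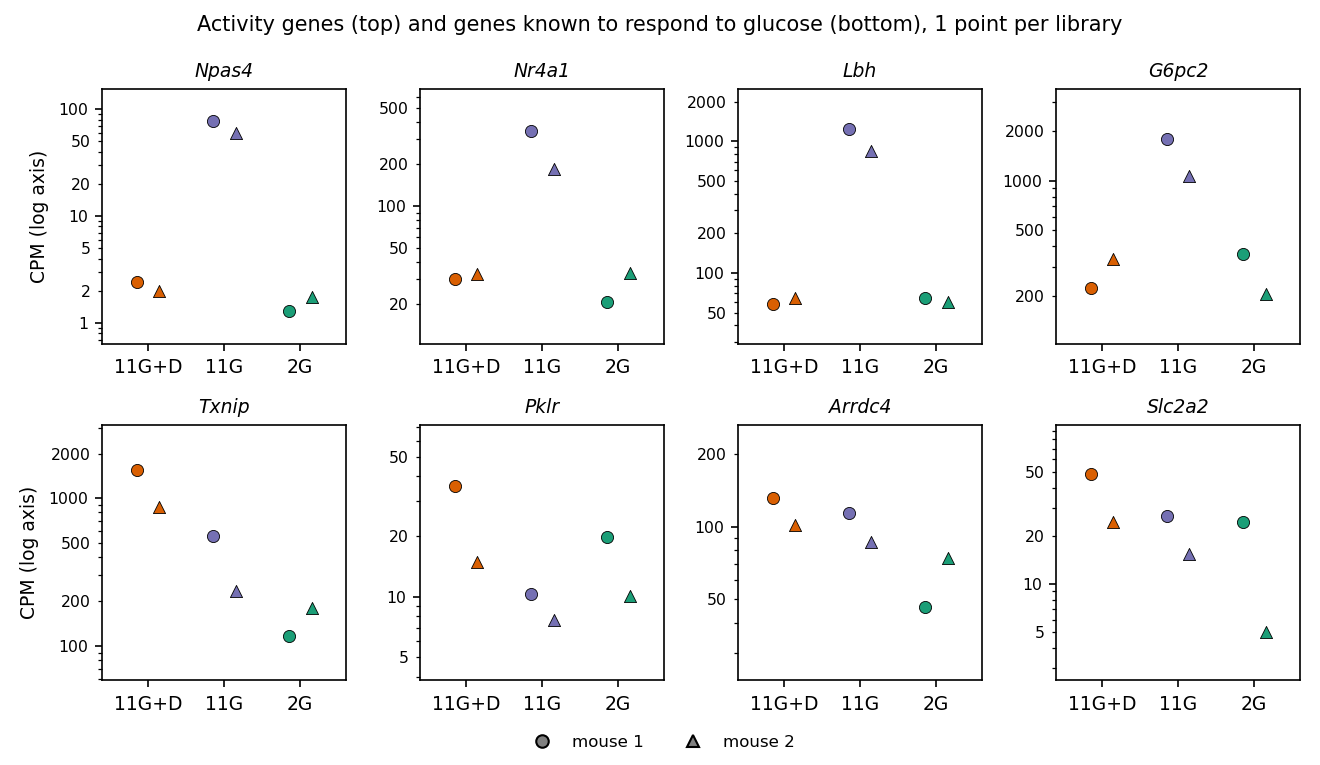
CPM on log axes of 4 activity genes (top) and 4 genes known to respond to glucose (bottom) in 11G+D, 11G and 2G, with a circle for mouse 1 and a triangle for mouse 2. Npas4, Nr4a1, Lbh and G6pc2 are high in 11G alone, whereas Txnip and Pklr are highest in 11G+D within each mouse.

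G6pc2, the islet glucose-6-phosphatase, had 223.2 and 332.2 CPM in 11G+D, 1798 and 1060 CPM in 11G, and 357.5 and 205.0 CPM in 2G. Its change against 2G went in opposite directions in the mice, -0.68 and 0.70. Fos, a subunit of AP-1, had 14.5 and 15.7 CPM in 11G+D, 79.6 and 52.4 CPM in 11G, and 15.6 and 45.0 CPM in 2G. The 11G+D values lay at or near the lower of the 2G values, and the log2 change of -0.97 did not pass (adjusted p = 0.180, edgeR) and was 0.08 without the 2G library of mouse 2. Egr1, an early growth response factor, had 50.3 and 54.7 CPM in 11G+D, 48.4 and 75.5 CPM in 11G, and 40.7 and 75.9 CPM in 2G, all overlapping. Unlike the genes above, Egr1 was not called against 11G either (log2 change -0.19, adjusted p = 0.638, edgeR).

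The members of these lists that fell against 2G were Dusp4, Per1, Nfil3, Rasd1, Srf and Dusp5, with Per1 on both lists. Dusp4, a phosphatase that ends ERK signalling, had 45.5 and 34.7 CPM in 11G+D, 156.6 and 115.5 CPM in 11G, and 136.6 and 96.0 CPM in 2G. The 11G+D libraries were the lowest of the 6, and the log2 change against 2G was -1.52 ± 0.15 (adjusted p = 0.00214, edgeR). Nfil3, a repressor in the clock pathway, had 37.5 and 39.5 CPM in 11G+D against 100.1 and 113.5 CPM in 2G, without overlap (log2 change -1.48 ± 0.25, adjusted p = 0.0148, edgeR). The clock gene Per1 and Rasd1, a Ras-like GTPase, fell by 0.65 and 0.99, and passed in none and in 1 of the 4 fits without a library. These 4 genes were also lower than in 11G. The transcription factor Srf had 61.2 and 77.2 CPM in 11G+D, 60.7 and 60.02 CPM in 11G, and 99.1 and 140.6 CPM in 2G. Dusp5, another phosphatase of ERK, had 68.0 and 85.2 CPM in 11G+D, 71.9 and 75.6 CPM in 11G, and 102.5 and 140.2 CPM in 2G. Both fell against 2G, by 0.79 and 0.66, and were not called against 11G, and each passed in 1 of the 4 fits without a library.

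Neat1 (ENSMUSG00000092274), the long noncoding RNA that scaffolds nuclear paraspeckles, had 399.9 and 374.5 CPM in 11G+D, 4172 and 3695 CPM in 11G, and 1445 and 1219 CPM in 2G. It was the 1 of 11 nuclear noncoding RNAs tested that passed, with a log2 change of -1.78 ± 0.21 against 2G (adjusted p = 0.00406, edgeR) and of -3.34 ± 0.22 against 11G. In each mouse the 3 conditions kept the same order, with 11G+D lowest. Neat1 also passed without the mouse block. It did not pass with all 12 libraries (adjusted p = 0.0574, edgeR). With the acinar share as a covariate, a fit that can separate little, it did not pass either (adjusted p = 0.167, edgeR). Adora2b, an adenosine receptor coupled to cAMP, was lowest in 11G and highest in 2G. It stood at 46.3 and 56.2 CPM in 11G+D, 11.7 and 9.09 CPM in 11G, and 99.6 and 72.2 CPM in 2G. Both 11G+D values were below both 2G values, but the log2 change of -0.71 did not pass (95% interval -1.20 to -0.22, adjusted p = 0.0926, edgeR), while 11G+D exceeded 11G by 2.34 ± 0.24 (adjusted p = 0.00126, edgeR).

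The amino acid response was lower across most of its members. ATF4 is a transcription factor whose translation rises under amino acid shortage or stress in the endoplasmic reticulum, and it induces amino acid transporters, synthesis enzymes, aminoacyl-tRNA synthetases and stress regulators. Of 44 members tested, 25 fell and none rose, where 2.31% of all genes tested fell. The median log2 change was -0.67, with -0.62 in mouse 1 and -0.78 in mouse 2, and 37 of 44 members lay below zero in both mice. Over all 16087 genes tested, 4729 lay below zero in both mice. Atf4 itself had 289.2 and 360.0 CPM in 11G+D against 508.1 and 746.9 CPM in 2G, with no overlap (log2 change -0.93 ± 0.16, adjusted p = 0.0151, edgeR).

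Among the regulators, the stress factor CHOP (Ddit3, ENSMUSG00000025408) had 142.2 and 194.5 CPM in 11G+D against 463.8 and 585.9 CPM in 2G. Every 11G+D value was below every 2G value, for a log2 change of -1.65 ± 0.19, or 3.14-fold lower (adjusted p = 0.0037, edgeR). Trib3, a pseudokinase that restrains ATF4 and AKT, had 71.9 and 119.9 CPM in 11G+D against 191.6 and 306.7 CPM in 2G. Chac1, which breaks down glutathione, had 30.6 and 47.8 CPM in 11G+D and 94.4 and 108.8 CPM in 2G, and Ppp1r15a (GADD34), which reverses the translation block, 96.3 and 133.2 CPM in 11G+D and 205.1 and 325.9 CPM in 2G. For Trib3, Chac1 and Ppp1r15a the groups did not overlap either, and the log2 changes were -1.38, -1.40 and -1.19. Nupr1, a stress-induced chromatin protein, had 261.3 and 307.1 CPM in 11G+D, 507.5 and 605.7 CPM in 11G, and 571.6 and 707.1 CPM in 2G. Of the 44 members it had the largest difference between 11G+D and 11G, -0.97 ± 0.16 on the log2 scale (adjusted p = 0.0117, edgeR).

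**Figure D4:**
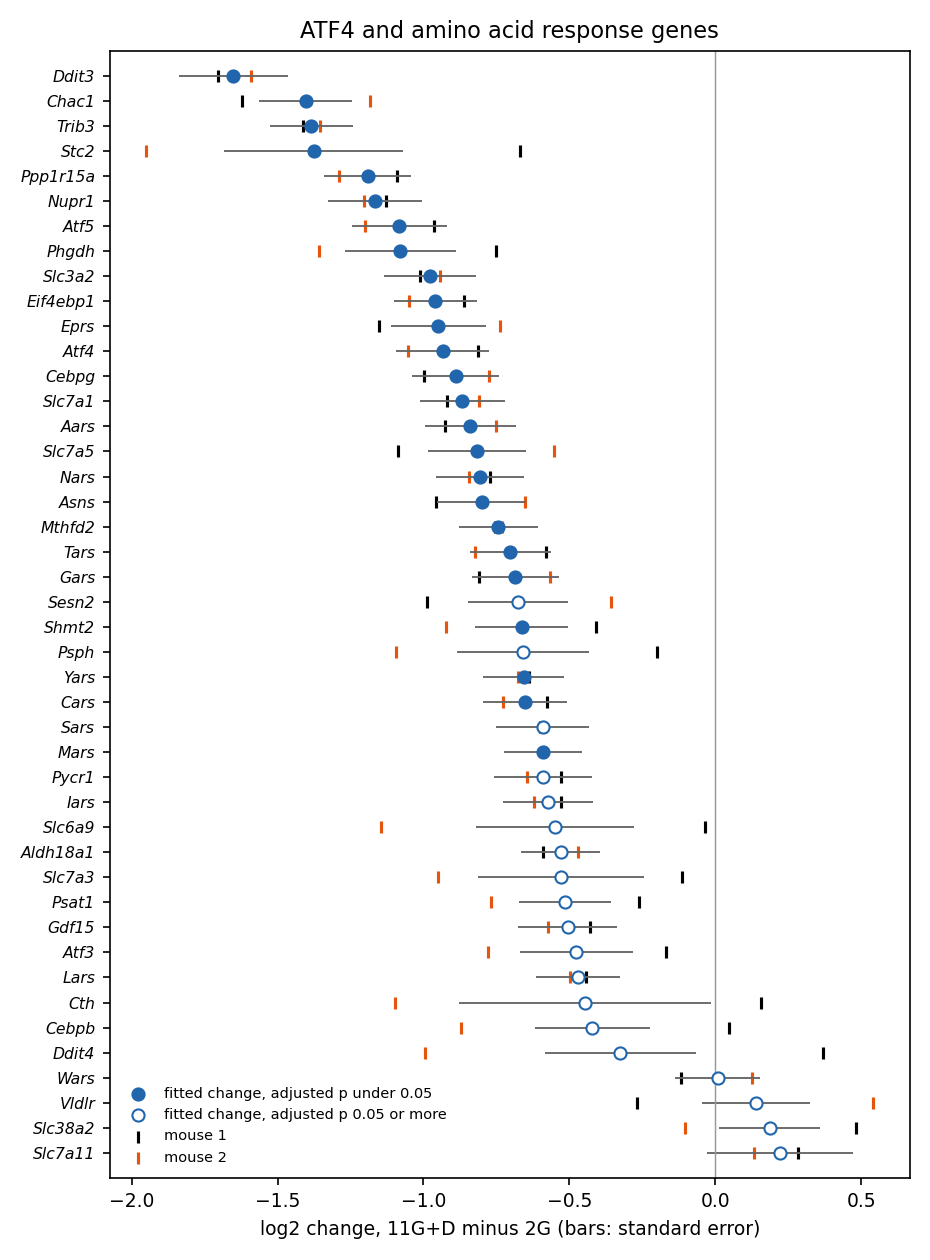
Log2 change in 11G+D against 2G of the 44 ATF4 and amino acid response genes tested, with the standard error as a bar, a filled point where the adjusted p is under 0.05 and ticks for each mouse. Of the 44 points, 25 are filled, all to the left of zero, from Ddit3 at -1.65 to Mars at -0.59.

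Among the effectors, the aminoacyl-tRNA synthetases Aars, Cars, Eprs, Gars, Mars, Nars, Tars and Yars fell, by 0.59 (Mars) to 0.95 (Eprs) on the log2 scale, while Iars, Lars, Sars and Wars did not pass (-0.57, -0.47, -0.59 and 0.01). The amino acid transporters Slc3a2, Slc7a1 and Slc7a5 fell by 0.98, 0.87 and 0.82. Asparagine synthetase (Asns) had 150.7 and 191.9 CPM in 11G+D against 292.5 and 301.5 CPM in 2G, with no overlap (log2 change -0.80 ± 0.15). The serine and one-carbon enzymes Phgdh, Shmt2 and Mthfd2 fell by 1.08, 0.66 and 0.74. The cystine transporter Slc7a11 and the glutamine transporter Slc38a2 had changes of 0.22 and 0.19 that did not pass. By contrast with these genes, of 31 endoplasmic reticulum chaperones and unfolded protein response genes 1 fell (Derl3, by 0.69) and none rose. Over all genes tested, 2.31% fell and 2.92% rose. The median of the list was 0.00 in the fit, but -0.23 in mouse 1 and 0.17 in mouse 2. Of its members, 3 lay below zero and 3 above zero in both mice.

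Without diazoxide the same list had 9 members lower and 1 higher in 11G than in 2G, with a median of -0.47, where 4.84% of all genes were called, 3.13% higher and 1.71% lower. The 11G and 11G+D islets were set against the same 2G libraries. Between 11G+D and 11G, 3 members were lower and none higher, with a median of -0.24. With the acinar share of counts as a covariate, the count of members lower against 2G was 1 in place of 25. That fit can separate little, as given below. The count of 25 was 14 without the 2G or without the 11G+D library of mouse 2, 13 with 1 of the 11G libraries left out, whichever it was, 8 with 1 of the 11G+FK libraries left out, 3 with the 4 libraries alone and 0 without the mouse block, where 2323 genes had an unadjusted p under 0.05.

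The windows before 3 of these genes that fell are shown because each holds a match to TGATGNAA, a form of the C/EBP-ATF composite element at which ATF4 binds with C/EBP partners. Capitals mark the match, which starts 193, 110 and 23 bases before the start site of Chac1, Nupr1 and Asns (RefSeq sequences of GRCm38.p6: Chac1 chr2:119350992-119351241, plus strand; Nupr1 chr7:126625471-126625720, minus strand; Asns chr6:7693210-7693459, minus strand).
Chac1: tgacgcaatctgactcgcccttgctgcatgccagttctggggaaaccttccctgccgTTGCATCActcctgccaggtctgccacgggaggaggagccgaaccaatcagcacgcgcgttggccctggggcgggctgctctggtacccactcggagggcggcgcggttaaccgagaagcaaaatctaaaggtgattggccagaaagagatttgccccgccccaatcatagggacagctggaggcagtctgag
Nupr1: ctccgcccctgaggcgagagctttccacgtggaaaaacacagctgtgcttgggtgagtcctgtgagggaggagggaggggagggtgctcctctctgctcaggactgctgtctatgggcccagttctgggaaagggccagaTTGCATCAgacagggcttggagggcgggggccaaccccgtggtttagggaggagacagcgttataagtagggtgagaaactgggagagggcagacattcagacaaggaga
Asns: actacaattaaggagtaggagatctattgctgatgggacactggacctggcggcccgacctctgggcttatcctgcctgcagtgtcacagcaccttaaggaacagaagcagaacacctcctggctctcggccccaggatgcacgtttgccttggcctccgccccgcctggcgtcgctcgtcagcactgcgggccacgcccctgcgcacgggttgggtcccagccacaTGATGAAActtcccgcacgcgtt
Searched on both strands of the 250 bases before the start, the motif was present in 3.45% of all windows. It was found for 6 of the 20 members that fell and had a window, and for 4 of the 15 members that were not called and had one. A member counted if any of its windows held a match, whereas the share is over single windows, so the figures are not directly comparable.

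Metallothioneins and a zinc exporter fell together. Metallothioneins are small proteins that bind zinc and copper, and their genes, like that of the zinc exporter ZnT1 (Slc30a1), are induced by free zinc through the transcription factor MTF1. β cells store zinc with insulin in secretory granules and release both. Mt1 had 389.5 and 745.8 CPM in 11G+D, 1956 and 1632 CPM in 11G, and 2475 and 2731 CPM in 2G. Mt2 had 261.9 and 612.0 CPM in 11G+D, 1326 and 1454 CPM in 11G, and 2107 and 2760 CPM in 2G. For both genes 11G+D was the lowest of the 3 conditions in each mouse, and the log2 changes against 2G were -2.23 ± 0.28 (adjusted p = 0.00484) and -2.56 ± 0.27 (adjusted p = 0.00292, edgeR). Against 11G the differences were -1.71 ± 0.27 for Mt1 and -1.78 ± 0.26 for Mt2.

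Slc30a1 had 13.3 and 17.0 CPM in 11G+D, 16.5 and 21.4 CPM in 11G, and 46.7 and 45.4 CPM in 2G. Here 11G+D and 11G were close (log2 difference -0.33, 95% interval -0.72 to 0.07), and 11G+D fell by 1.62 ± 0.18 against 2G (adjusted p = 0.00348, edgeR). These 3 genes, of 11 metallothionein and zinc transport genes tested, passed in each of the fits that leave out a library, and with the 4 libraries alone, but not without the mouse block. Slc30a8, the zinc transporter of insulin granules, had 118.2 and 88.3 CPM in 11G+D and 158.8 and 75.2 CPM in 2G, overlapping. Reads of Mt1 and Mt2, which are similar in sequence, could be split between them in counting.

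The windows before Mt2 and Slc30a1 are shown because they hold metal response elements, the sites that MTF1 binds (RefSeq sequences of GRCm38.p6: Mt2 chr8:94172368-94172617 and Slc30a1 chr1:191906531-191906780, both plus strand). Capitals mark matches to TGCACNC or TGCGCNC on either strand. They start 223, 128 and 50 bases before the start site of Mt2 and 43 bases before that of Slc30a1.
Mt2: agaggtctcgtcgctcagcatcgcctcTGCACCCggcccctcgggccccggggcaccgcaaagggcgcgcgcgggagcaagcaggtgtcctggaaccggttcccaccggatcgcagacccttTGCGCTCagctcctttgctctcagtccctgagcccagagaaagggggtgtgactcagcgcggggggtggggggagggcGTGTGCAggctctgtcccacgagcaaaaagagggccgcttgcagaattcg
Slc30a1: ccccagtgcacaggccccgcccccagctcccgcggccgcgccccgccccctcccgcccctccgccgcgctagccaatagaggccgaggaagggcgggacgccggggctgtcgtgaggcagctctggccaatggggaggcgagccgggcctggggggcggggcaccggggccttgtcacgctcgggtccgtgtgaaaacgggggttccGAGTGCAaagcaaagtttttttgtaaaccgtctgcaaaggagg
At least 1 match was present in 21.4% of all windows and at least 3 in 1.26%. All 3 genes that fell had a match, as did 2 of the 5 members not called that had a window. Here too a member counted if any of its windows held a match, whereas the shares are over single windows.

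**Figure D5:**
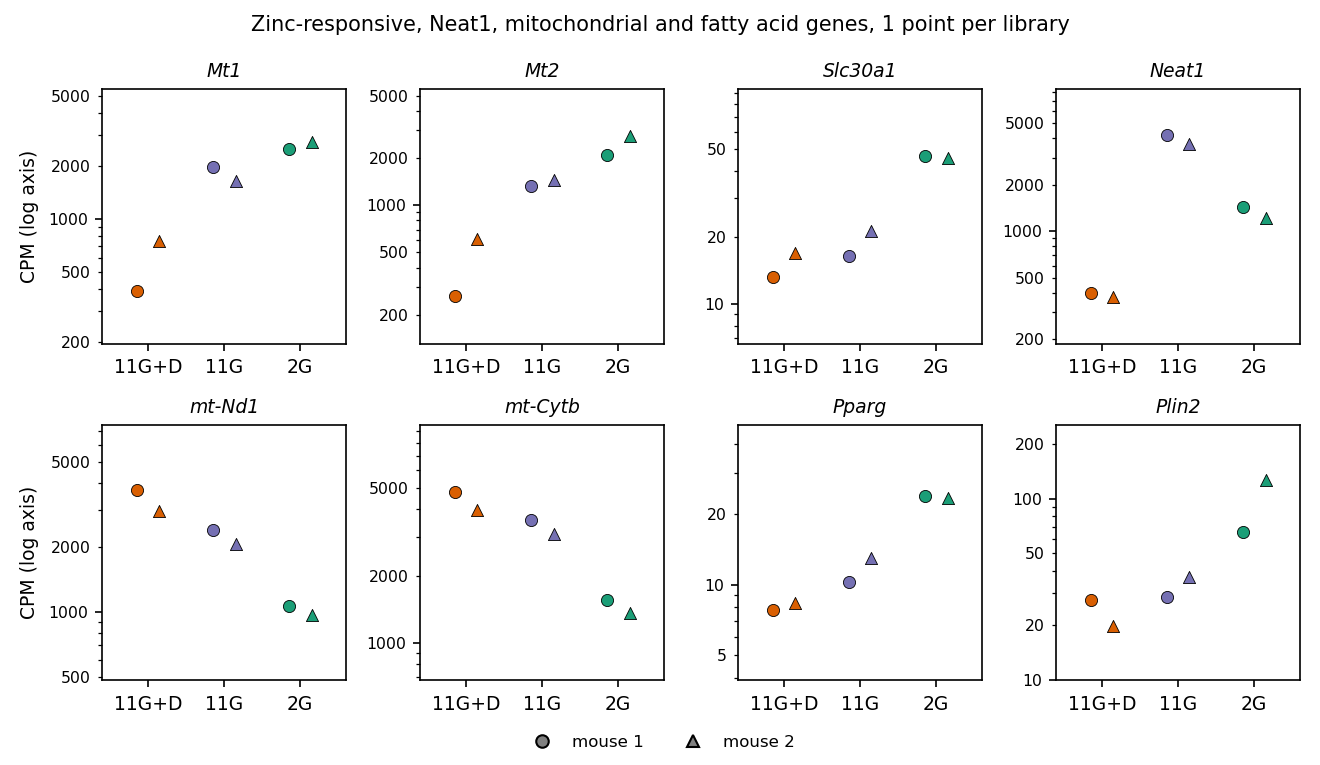
CPM on log axes of Mt1, Mt2, Slc30a1 and Neat1 (top) and of mt-Nd1, mt-Cytb, Pparg and Plin2 (bottom) in 11G+D, 11G and 2G, with a circle for mouse 1 and a triangle for mouse 2. Mt1, Mt2 and Neat1 are lowest in 11G+D, and the mitochondrial transcripts are highest there.

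Transcripts encoded by mitochondrial DNA took 2.97% and 2.38% of all counts in 11G+D and 1.99% and 1.92% in 11G, against 1.21% and 1.03% in 2G. Of 12 such protein-coding genes tested, 7 rose and none fell, all 12 were above zero in both mice, and the median log2 change was 1.57. Over all 16087 genes tested, 2.92% rose and 4783 genes were above zero in both mice. Of the members that passed, mt-Nd2, a subunit of complex I, had the largest change, with 2606 and 1782 CPM in 11G+D against 512.5 and 380.2 CPM in 2G, well apart (log2 change 2.29 ± 0.26, adjusted p = 0.0037, edgeR). Cytochrome b (mt-Cytb) had 4787 and 3986 CPM in 11G+D against 1558 and 1358 CPM in 2G. The subunits of complex IV and the ATP synthase subunit mt-Atp6 had smaller values that did not pass, from 0.69 for mt-Co3 to 0.80 for mt-Co1. Genes of the respiratory chain encoded in the nucleus did not show this: of 44 tested 1 rose (Ndufa4, by 0.94) and none fell, with a median of -0.07. Without the 2G library of mouse 2, 1 of the 12 mitochondrial genes passed, with the other leave-one-out fits at 7 or 8. With the 4 libraries of 11G+D and 2G alone 1 mitochondrial gene passed, and 0 passed without the mouse block or with the acinar share as a covariate. The mitochondrial share of counts also differed between the 11G+FK libraries of the mice, at 2.11% and 3.50%.

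Transcription factors of β-cell identity were higher in part, and more so in mouse 2. Of 34 identity genes, 8 rose and 2 fell, where 2.92% of all genes tested rose and 2.31% fell. The median log2 change was 0.09 in mouse 1 and 0.73 in mouse 2. Marker lists of other islet cells also had the higher median in mouse 2. Their medians in mouse 1 and mouse 2 were -0.13 and 0.79 for α cells and -0.01 and 0.57 for δ and pancreatic polypeptide cells. None of these markers passed. Whether the rise is particular to β cells was not tested. Pdx1, the factor that binds the insulin promoter, had 80.6 and 113.6 CPM in 11G+D against 44.7 and 30.1 CPM in 2G, with no overlap (log2 change 1.42 ± 0.24, adjusted p = 0.0149, edgeR). Mnx1, required for the β-cell fate, had 18.3 and 31.8 CPM in 11G+D against 8.16 and 6.53 CPM in 2G, also apart (log2 change 1.77 ± 0.28, adjusted p = 0.0118, edgeR). Neurod1, Isl1, Pax6, Rfx6 and Ldb1 rose by 0.83 (Ldb1) to 1.11 (Neurod1), and Slc2a2 is given above. Without the 11G+D library of mouse 2 the change was 0.88 for Pdx1 and 0.63 for Isl1; they passed in 3 and 2 of the 4 fits that leave out a library. Glis3, a zinc finger factor of β cells, had 62.1 and 57.6 CPM in 11G+D against 106.5 and 99.0 CPM in 2G and fell, as did the cation channel Trpm5.

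No identity gene passed upward without the 2G library of mouse 2, and 3 did without the 11G+D library of mouse 2. In that 2G library several endocrine transcripts were low, with Mafa at 29.7 CPM against 67.3 CPM in 2G of mouse 1 and Gcg at 3010 CPM against 14370 CPM, while acinar and ductal transcripts were high, as given above. Their part in the identity genes' change was not tested. None of 21 hormone, processing enzyme and granin genes and none of 30 exocytosis genes passed. The log2 change was 0.49 for Ins1 (95% interval -0.21 to 1.18), 0.29 for Ins2 (-0.57 to 1.15), 0.37 for Gcg (-0.50 to 1.24) and 0.57 for Sst (0.11 to 1.03). The KATP subunits, the target of diazoxide, did not pass either, with 985.0 and 1011 CPM in 11G+D and 983.2 and 599.5 CPM in 2G for Abcc8 (SUR1), and 45.0 and 77.4 CPM in 11G+D and 77.6 and 51.9 CPM in 2G for Kcnj11 (Kir6.2). Of 34 channel genes, Cacna1c (an L-type calcium channel) and Scn3a (a sodium channel) rose, by 1.09 and 1.12, and Kcnk3 (a leak potassium channel) and Trpm5 fell, by 0.98 and 0.72. The shares over all genes tested were 2.92% higher and 2.31% lower.

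Part of the genes of fatty acid use were lower. Of 27 PPAR target and fatty acid oxidation genes, a list written after these values had been seen, 9 fell and none rose. Over all genes tested, 2.31% fell and 2.92% rose. The median log2 change of the list was -0.65. Pparg, a lipid-activated nuclear receptor, had 7.82 and 8.33 CPM in 11G+D, 10.2 and 13.1 CPM in 11G, and 24.0 and 23.4 CPM in 2G, so that 11G+D was lowest in each mouse (log2 change against 2G -1.55 ± 0.20, adjusted p = 0.00524, edgeR). Plin2, which coats lipid droplets, had 27.5 and 19.9 CPM in 11G+D against 65.2 and 126.6 CPM in 2G, without overlap (log2 change -1.95 ± 0.27). The mitochondrial carnitine carrier Slc25a20 and the oxidation enzymes Acadvl, Acadl and Acaa2 fell by 0.98, 0.79, 0.79 and 0.99. The count of 9 was 3 without the 2G library of mouse 2 and 4 without the 11G+D library of mouse 2, and 0 with the 4 libraries of 11G+D and 2G alone, without the mouse block or with the acinar share as a covariate.

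The cytoplasmic actins and a few actin-linked genes were lower as well. Of 23 targets of SRF and YAP, a list also written after the values were seen, 6 fell and none rose. Over all genes tested, 2.31% fell and 2.92% rose. The median of the list was -0.36 for mouse 1 and -1.41 for mouse 2. Actb had 382.6 and 545.0 CPM in 11G+D against 909.7 and 1737 CPM in 2G, and Actg1 371.1 and 513.5 CPM against 1088 and 1398 CPM. Both actins were lower in each mouse, with log2 changes of -1.46 ± 0.18 and -1.50 ± 0.18 (adjusted p = 0.00436 and 0.00406, edgeR). Ankrd1, a YAP target, had 14.6 and 24.9 CPM in 11G+D, 6.52 and 29.8 CPM in 11G, and 40.1 and 155.3 CPM in 2G. The count of 6 was 3 with the 11G+D or the 2G library of mouse 2 left out and 12 with that of mouse 1 left out. It was 1 with the 4 libraries of 11G+D and 2G alone and 0 without the mouse block or with the acinar share as a covariate.

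Beside these genes, 7 of 24 acinar markers and 2 of 15 ductal markers (Krt7 and Krt8) fell in 11G+D. Of 14 endothelial markers 1 gene alone, Vwf, fell. No marker of these types was higher. Over all genes tested, 2.31% fell and 2.92% rose. The acinar count was 15 without the 11G+D library of mouse 1, 8 without the 2G library of mouse 2 and 0 with the 11G+D library of mouse 2 or the 2G library of mouse 1 left out. Krt8 and Vwf passed in 2 of the 4 such fits each, and their changes of -1.06 and -0.97 on the log2 scale were -0.62 and -0.61 without the 2G library of mouse 2. None of 17 stellate and fibroblast markers and none of 19 macrophage and lymphocyte markers passed. The acinar enzymes Ctrb1 and Prss2 had 48.8 and 108.1 CPM and 13.1 and 29.3 CPM in 11G+D, against 188.4 and 307.8 CPM and 51.1 and 86.1 CPM in 2G. The ductal and stellate medians were 0.25 and 0.64 in mouse 1 and -1.25 and -1.07 in mouse 2. With the acinar share as a covariate 227 genes passed, 150 higher and 77 lower, but group and mouse together account for 96.1% of the variance of that share, so this fit can separate little. Mt1, Mt2, Txnip, Aqp4, Ppp1r10 and Chac1 were among the named genes that passed in it.

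Several of the largest changes belonged to genes outside these groups. Aqp4 (ENSMUSG00000024411), a water channel, had 101.5 and 56.0 CPM in 11G+D, 25.8 and 14.3 CPM in 11G, and 10.6 and 4.57 CPM in 2G, a log2 change against 2G of 3.41 ± 0.24 (adjusted p = 0.000253, edgeR). Ppp1r10, a nuclear regulator of protein phosphatase 1, had 97.6 and 170.6 CPM in 11G+D, 48.1 and 96.5 CPM in 11G, and 20.2 and 39.6 CPM in 2G. Its log2 change of 2.19 ± 0.14 had the lowest adjusted p of the named genes, 0.000245 (edgeR). For Aqp4 and Ppp1r10 the 3 conditions ran in the same order in each mouse, with 11G+D highest.

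Receptors were among the higher genes. Ptger3, a prostaglandin E2 receptor that lowers cAMP, had 6.56 and 8.86 CPM in 11G+D, 4.71 and 3.97 CPM in 11G, and 1.08 and 0.870 CPM in 2G (log2 change 2.97 ± 0.34, adjusted p = 0.00393, edgeR). Ffar3, a receptor for short-chain fatty acids, had 13.7 and 11.7 CPM in 11G+D, 2.94 and 5.28 CPM in 11G, and 2.00 and 2.26 CPM in 2G. Both were above 2G in each mouse, and Ffar3 was also above 11G, by 1.64 ± 0.32 on the log2 scale (adjusted p = 0.0236, edgeR). Ttc25, a cilium protein, and Tcp10b, a gene of the mouse t complex, rose by 3.004 and 3.05 and likewise exceeded 11G, by 2.38 and 2.97. The potassium channel subunit Kcnab3 had 43.7 and 14.1 CPM in 11G+D against 5.64 and 4.48 CPM in 2G. Amigo3, an adhesion protein, and Cyp2u1, a fatty acid hydroxylase, rose by 2.301 and 2.24, with differences from 11G of 0.31 and 0.26 that did not pass.

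Among the largest decreases, the keratin Krt80 had 1.68 and 2.303 CPM in 11G+D, 1.52 and 2.98 CPM in 11G, and 14.1 and 15.8 CPM in 2G (log2 change against 2G -2.93 ± 0.29, adjusted p = 0.0028, edgeR). Hpgd, which degrades prostaglandins, had 0.892 and 0.650 CPM in 11G+D against 4.36 and 10.2 CPM in 2G, a change of -3.07 on the log2 scale that ran from -3.98 to -2.26 with 1 library left out and passed in 2 of the 4 such fits. The potassium channel Kcnk13 had 1.26 and 1.83 CPM in 11G+D against 8.57 and 7.09 CPM in 2G. In these 3 genes no 11G+D value reached a 2G value, and Krt80 and Kcnk13 passed in all 4 fits. Cyp1a1, the classical target of the aryl hydrocarbon receptor, had 17.0 and 5.79 CPM in 11G+D, 68.0 and 20.2 CPM in 11G, and 97.6 and 16.1 CPM in 2G. It differed between the mice in every condition, fell within both (by 2.52 and 1.46), had a fitted change of -2.11 that was -1.21 without the 2G library of mouse 1, and passed in 1 of the 4 fits without a library. Its relative Cyp1b1 also fell, so that 2 of 6 genes of that pathway tested were lower, where 2.31% of all genes tested fell.

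Of 20 clock genes, 1 rose and 4 fell, where 2.92% of all genes tested rose and 2.31% fell. Nr1d1 (REV-ERBα), a repressor of the clock, had 116.9 and 119.2 CPM in 11G+D, 100 and 98.4 CPM in 11G, and 199.3 and 214.7 CPM in 2G, apart from 2G in both mice (log2 change -0.81 ± 0.14, adjusted p = 0.0156, edgeR).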

How the data were processed

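RNA sequencing was done on islet total RNA, and libraries were made and sequenced by a commercial provider, per the labels' protocols. The authors deposited tables that each set 2 libraries of 1 mouse side by side. Per the file headers, they hold, for each gene, raw read counts, FPKM values and the authors' normalized counts, a signal that was a constant multiple of the raw count within each column. The aligner, counting tool, strand use and genome build are recorded as not given in the sources used here.

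Raw counts were joined by Ensembl identifier into 24503 genes, a gene absent from a table counting as 0 (19653 were in the tables of all 4 libraries). The 8 wild-type libraries were fitted by edgeR's two-sided quasi-likelihood test (version 4.0.16, under R 4.3.3), with TMM scaling and the filterByExpr filter (count of at least 10, total of at least 15), group and mouse as terms and Benjamini-Hochberg adjustment over all 16087 genes tested. The fit had 3 residual degrees of freedom and a biological coefficient of variation of 16.2%. With 2 mice per group, p-values rest on a spread shared by the 8 libraries. The standard error is the log2 change over the square root of F, and intervals are 95%. CPM were scaled with TMM factors, and changes per mouse are differences of log2 CPM with a prior count of 1. The labels give islets under each condition the same mouse numbers, and the samples were paired by these numbers. Deviations of same-numbered libraries from their group means correlated across genes by 0.145 to 0.456 in all 6 pairs of conditions. Libraries of each mouse number also carry a name series of their own in the headers. The correlations therefore cannot tell a shared mouse from a shared set of libraries. The script was tested on simulated data. DESeq2 1.42.0, other filters and scalings, other sets of libraries and the leaving out of each library were tried as alternatives.

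Named genes are the 15 largest increases and 15 largest decreases past the threshold that moved alike in both mice and averaged 1 FPKM or more, up to 5 members per gene list by p, and a fixed set of activity, hormone and metabolic genes. The lists, the members and the rule were chosen with earlier results of these data known, and the PPAR, SRF and glycogen lists, the CACGAG pair and further named list members were chosen after their values were seen. Lists are described by counts and medians, with no test, and a few genes counted in them are not reported here. Promoter sequences came from RefSeq (GRCm38.p6); 32841 windows of 250 bases before a start site were searched.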

Additional observations from a re-analysis of the deposited data

Results flagged for a closer look

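For the genes named here the change from 2G at 11 mM glucose differed between islets with and without diazoxide, tested as the difference between 11G+D and 11G (edgeR's quasi-likelihood test, adjusted p under 0.05; 3.79% of all genes tested passed). Both changes share the 2G libraries, and the values that follow are log2 differences, 11G+D minus 11G. Among genes known to follow membrane activity and calcium, those called lower with diazoxide were Npas4 at -4.95, Lbh at -4.04, Nr4a1 at -3.07, G6pc2 at -2.26, Fos at -2.15, Dusp4 at -1.76, Nfil3 at -1.38, Rasd1 at -1.31 and Per1 at -1.05. Egr1, Srf and Dusp5 were not called in this comparison. Fos, Dusp4, Nfil3, Rasd1 and Per1 were not called in 11G against 2G. Also lower were Neat1 at -3.34, Cyp1a1 at -1.91, Mt2 at -1.78, Mt1 at -1.71, Rwdd2a at -1.37, Kcnk3 at -1.20, Nupr1 at -0.97, Eno2 at -0.81, Chac1 at -0.77 and Glis3 at -0.58.

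The genes higher with diazoxide were Tcp10b at 2.97, Ttc25 at 2.38, Adora2b at 2.34, Aqp4 at 1.97, Txnip at 1.66, Ffar3 at 1.64, Pklr and Kcnab3 at 1.40 each, Nfatc2 (an NFAT factor) at 1.20, the cytokine gene Csf3 at 1.04, Pdk1 at 1.02, Ppp1r10 at 0.92 and the chemokine gene Cxcl10 at 0.64. Of these genes, Mt1, Mt2, Dusp4, Nfil3, Neat1, Cyp1a1, Nupr1, Eno2, Chac1, Glis3, Rwdd2a, Rasd1, Per1 and Kcnk3 were also below 2G, so that 11G+D lay lowest of the 3 conditions, and Tcp10b, Ttc25, Aqp4, Txnip, Ffar3, Kcnab3, Nfatc2, Csf3, Pdk1, Ppp1r10 and Cxcl10 were also above 2G.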

How the results depend on the processing

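The counts of genes changed, higher and lower in 11G+D against 2G were 840, 469 and 371. They were 838, 466 and 372 with DESeq2's size factors in edgeR (RLE), 735, 416 and 319 with at least 10 CPM in 2 libraries, 838, 467 and 371 for genes in all 4 tables, 832, 479 and 353 without mitochondrially encoded genes, and 887, 423 and 464 with all 12 libraries. They were 1573, 809 and 764 with no filter on low counts, 1244, 655 and 589 with DESeq2, 51, 23 and 28 with the 4 libraries alone, and 227, 150 and 77 with the acinar share as a covariate. Leaving out 1 library of 11G+D or 2G gave 246 to 1140 changed, 105 to 584 higher and 129 to 595 lower. In fits added after the data were seen, leaving out 1 library of 11G or 11G+FK gave 152 to 291 changed, 97 to 156 higher and 55 to 137 lower. The cause of these differences was not tested, beyond the fewer libraries and degrees of freedom in some fits.

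Without the mouse as a replicate block, 10 genes passed, 5 higher and 5 lower, among them Amigo3, Neat1, Ptger3 and Rgs16. Of the 87 named genes past the threshold, 4 passed without the block, 31 in all 4 fits without a library of 11G+D or 2G, 28 with the 4 libraries alone and 83 with DESeq2. None of the 87 changed direction in these fits. With the acinar share as a covariate 9 of the 87 passed and 10 were reversed: Wnt7a at 1.47, Ankrd1 at 0.13, Plin2 at 0.31, Fgd3 at 1.48, Scn3a at -0.094, Mnx1 at -0.25, Pdx1 at -0.47, Isl1 at -0.60, Krt8 at 0.86 and Vwf at 0.51 on the log2 scale. Genes that had not passed turned too: Ins2 to -0.19, Gcg to -1.98, Sst to -0.18, Fos to 0.66, Egr1 to 1.17, G6pc2 to -2.40 and Abcc8 to -0.72. Values near zero also turned for G6pc2 without the block (-0.018) and for Lbh with the 10 CPM filter (0.000524) or without mitochondrial genes (0.00313). Leaving out 1 library gave ranges on both sides of zero for Gcg (-0.21 to 0.97), Fos (-1.70 to 0.079), Egr1 (-0.39 to 0.21), Nr4a1 (-0.22 to 0.75), G6pc2 (-0.68 to 0.69), Lbh (-0.38 to 0.31) and Kcnj11 (-0.65 to 0.42).

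Genes with few reads rest on little depth, and with 2 mice differences that did not pass are not shown to be absent.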

Other observations

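A few inflammatory and stress genes not described above also passed against 2G. Of 31 inflammatory genes, 2 rose and none fell, where 2.92% of all genes tested rose and 2.31% fell. Csf3, a granulocyte growth factor, had 27.0 and 59.5 CPM in 11G+D, 12.9 and 29.5 CPM in 11G, and 12.7 and 40.4 CPM in 2G, and was higher within each mouse although the mice differed (log2 change 0.81 ± 0.17, adjusted p = 0.032, edgeR). Cxcl10, an interferon-induced chemokine, had 59.9 and 69.5 CPM in 11G+D, 41.4 and 41.7 CPM in 11G, and 35.3 and 41.7 CPM in 2G. Among 25 genes of the NRF2 oxidative stress response, Keap1, which holds NRF2 back, rose by 0.71 on the log2 scale, and Sqstm1, an autophagy receptor, had 1157 and 1530 CPM in 11G+D against 2453 and 2627 CPM in 2G and fell. Csf3, Cxcl10, Keap1 and Sqstm1 did not pass without the mouse block or with the 4 libraries of 11G+D and 2G alone. With 1 library left out, the log2 change of Csf3 ran from 0.59 to 1.06. None of 20 cytosolic chaperones passed. Rgs16, a brake on G protein signalling named after its value was seen, had 160.1 and 144.4 CPM in 11G+D, 121.9 and 96.2 CPM in 11G, and 42.9 and 54.1 CPM in 2G, and passed without the mouse block.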
